A study of Mus musculus with 8 samples.

Results

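The nuclear-encoded subunits of the mitochondrial respiratory chain and of ATP synthase were followed across 4 treatments of a mouse pancreatic cancer cell clone. They were chosen by name and a count rule, with earlier results of these data known. The names are protein-coding symbols that start with Ndufa, Ndufb, Ndufc, Ndufs, Ndufv, Uqcr, Cox4i, Cox5, Cox6, Cox7, Cox8 or Atp5. Sdha, Sdhb, Sdhc, Sdhd and Cyc1 also count, and the Ndufaf assembly factors do not. Of 42687 gene rows, 86 carried such a name and 79 had at least 100 counts summed over the 8 libraries. These 79 members comprise 36 of complex I, 4 of complex II, 9 of complex III, 13 of complex IV (Ndufa4 among them) and 17 of complex V. All 79 also passed the filter on low counts before testing, so none was lost there.

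The respiratory chain sits in the inner mitochondrial membrane. Complexes I and II take electrons from NADH and succinate, complexes III and IV pass them by way of cytochrome c to oxygen, and the proton gradient built along the way drives ATP synthase, often called complex V. Most subunits are encoded in the nucleus. The mitochondrial genome encodes the others, except for complex II, which is entirely nuclear. The mitochondrially encoded subunits were not analysed here, so the values describe only the nuclear share of each complex and only its mRNA.

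The cells were 1 clone of low immunogenicity isolated from KPCY mice, whose alleles include Trp53LSL-R172H/+, Pdx1-Cre and Rosa26YFP/YFP. In that model Pdx1-Cre switches on the mutant Trp53 allele and the YFP reporter in the pancreatic lineage, and all 4 groups share this background. The genotype entry of the samples reads WT, while the alleles are named in the description of the design. Cultured cells received PBS, ATEVs at 15 µg/mL, NTEVs at 30 µg/mL, or ATEVs at 15 µg/mL that had been pretreated with Baseline-ZERO DNase. EVs are extracellular vesicles, membrane particles shed by cells. NTEVs were released by non-activated T cells. The labels do not spell out ATEV, which is read here as its counterpart from activated T cells. The labels relate the ATEV and NTEV amounts to 5 µg/mL of EV-DNA, so mass and cell source of the vesicles differ between those groups. Exposure, harvest and reseeding were repeated 8 times. The comparisons address how vesicles, their T cell source and their pretreatment with DNase relate to the transcriptome. No group received DNase without vesicles. Loss of DNase-sensitive content therefore cannot be told apart from the added enzyme and its handling.

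Each group had 2 RNA sequencing libraries, with 34385326 to 52451398 gene counts apiece. Nothing in the labels ties the libraries of a group to different cultures, and p-values then measure only their spread, which may be technical. With 2 against 2, an exact permutation test of a single gene cannot give a two-sided p below 0.333, and the tests below come from edgeR's quasi-likelihood model fitted to 15197 genes at once. Levels are CPM (counts-per-million after scaling). Levels of different genes are compared only as CPM per kb of transcript. The epithelial markers summed to between 8818 and 11780 CPM in the 8 libraries, carried by Krt8, Krt18 and Krt19, while Cldn4 and Sox9 averaged 1.504 and 5.12 CPM in PBS libraries. T cell markers summed to between 6.27 and 11.7 CPM, with Cd2 and Cd8a at 0 counts, and 10 of the 12 had counts. Of these, Trac and Lck passed the filter on low counts. Their log2 fold changes were -0.57 and 0.29 in ATEV against PBS, and -0.15 and 1.22 in ATEV against NTEV. Neither passed the test in edgeR after adjustment. Fibroblast markers summed to between 2.87 and 10.2 CPM, with Dcn and Lum at 0 counts, and 3 of the 5 had counts. Col1a1 and Pdgfra were tested, with log2 fold changes of 1.29 and -1.09 in DNase-treated ATEV against PBS. Neither passed the test in edgeR after adjustment.

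Nuclear respiratory genes are known to carry sites for NRF1 and for ETS factors such as GABP in their promoters. The 250 bases before the RefSeq start (GRCm38.p6) were found for 64 of the 79 members, in 69 windows, and searched on both strands. The NRF1 pattern (GCGC, then any base, then TGCGC) occurred in 20.3% of the member windows and 3.74% of all 32851 windows. The ETS pattern CCGGAAG occurred in 17.4% and 6.91%. AAGATGGC, a YY1 pattern, and TCAAGGTCA, an ERR pattern, were each found in 1 member. Among the members the results turn on, Sdhd held 1 NRF1 and 1 ETS match, Sdha held 3 NRF1 matches, and the windows of Uqcrfs1 and Atp5b held none of the 4 patterns. The matches of Sdhd and Sdha are shown because these subunits of 1 complex gave the only call and one of the largest differences below. Each is printed 5' to 3' on the gene's strand, with the match in capitals and up to 10 bases on either side, and none of them overlaps another match.
Sdhd NRF1 pattern: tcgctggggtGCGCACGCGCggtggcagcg
Sdhd ETS pattern: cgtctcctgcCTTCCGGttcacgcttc
Sdha NRF1 pattern, distal: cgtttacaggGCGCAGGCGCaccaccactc
Sdha NRF1 pattern, middle: ggggcgtgttGCGCAGGCGCagaatcttcc
Sdha NRF1 pattern, at the start: gcgactcggtGCGCAAGCGC
All 5 matches read as the given letters on the opposite strand. The Sdhd stretches are chr9:50603909-50603938 and chr9:50603879-50603905 (minus strand), and their matches end 69 and 39 bases before the start. The first lies over an annotated exon of the divergent neighbour Timm8b and the second over no annotated exon. The Sdha stretches are chr13:74350319-74350348, chr13:74350276-74350305 and chr13:74350241-74350260 (minus strand). The first of these touches an exon of Ccdc127, and the other two touch an exon of an Sdha transcript with an earlier start. A match describes letters in a window and not a bound site. Members with and without an NRF1 match had nearly the same median log2 fold change in ATEV against PBS, -0.16 in each.

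In PBS-treated cells ATP synthase genes were the most abundant per length. Atp5b, the catalytic beta subunit, was at 1021 ± 78.5 CPM per kb (SD, n = 2), and Atp5a1, the alpha subunit of the same F1 head, was at 556 ± 7.75 CPM per kb. Cox4i1, the ubiquitous form of a complex IV subunit, followed at 543 ± 43.5, with Cox6a1 at 427 ± 7.51, Atp5g3 at 391 ± 31.8 and Ndufa4 at 368 ± 30.7 CPM per kb. Median levels per complex ran from 76.8 CPM per kb for complex I to 110 for complex II, 117 for complex III, 156 for complex IV and 216 for complex V. The ranges within complexes were far wider than the steps between these medians. In complex I, Ndufa7 was at 249 and Ndufb2 at 1.45 CPM per kb, the latter against a reference transcript of 4371 bases. In complex II, the iron-sulphur subunit Sdhb was at 165 ± 11.3, the membrane anchor Sdhd at 131 ± 7.78, the flavoprotein Sdha at 89.2 ± 3.21 and the other anchor Sdhc at 48.7 ± 0.832 CPM per kb. In complex III, levels ran from 237 for Uqcr11 to 66.6 for Uqcrfs1, the Rieske iron-sulphur protein.

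**Figure D1:**
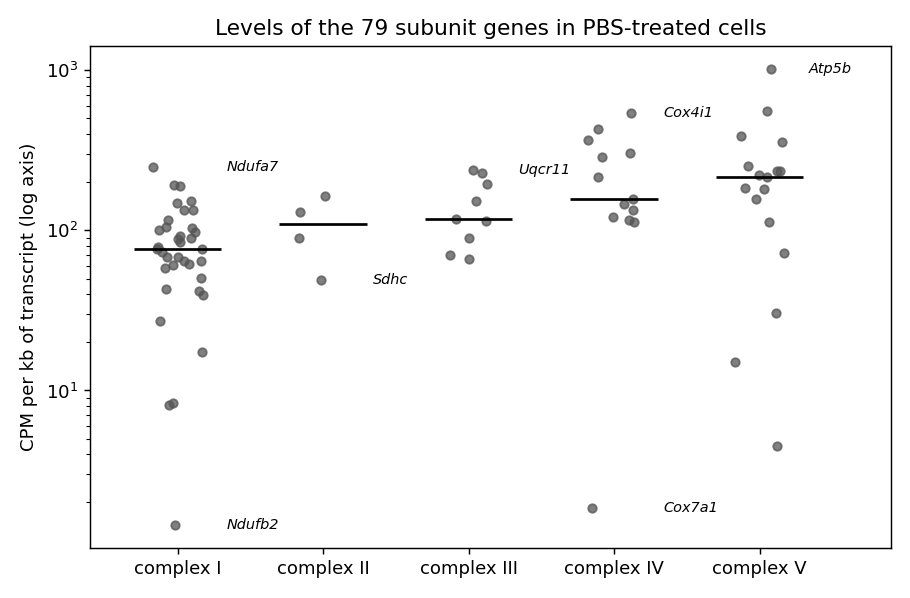
Level of each of the 79 subunit genes with PBS, as CPM per kb of reference transcript on a log axis, by complex; each point is a gene (mean of 2 libraries) and each line the median of its complex. Atp5b stands highest at 1021 CPM per kb, and Ndufb2 and Cox7a1 lie lowest at 1.45 and 1.86.

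The isoforms known for muscle, lung, testis or hypoxia were near the bottom or under the count rule. Cox7a1, the heart and skeletal muscle isoform of a complex IV subunit, just met it with 282 counts over the 8 libraries. In CPM, its PBS libraries had 0.913 and 0.547, its ATEV libraries 0.644 and 0.913, its NTEV libraries 0.430 and 1.52, and its DNase-treated ATEV libraries 0.726 and 0.896. All groups overlapped, and no comparison separated them, as with ATEVs against PBS (log2 fold change 0.08, 95% interval -1.36 to 1.52). Its counterpart Cox7a2 was at 156 CPM per kb with PBS, against 1.86 for Cox7a1. Below the rule were Cox4i2 with 7 counts in all, Cox6a2 with 5, Ndufa4l2 with 4, and Cox6b2, Cox7b2, Cox8b and Cox8c with 0. The next members above Cox7a1 were Ndufb2 with 1919 counts, Atp5s with 2114 and Ndufb4 with 2688. Atp5s and Cox7a2l are named like subunits but are not structural parts of the complexes: Atp5s is a coupling-factor-like protein, and Cox7a2l helps to join complexes III and IV into supercomplexes. A further 11 rows not annotated as protein-coding, pseudogenes of these names among them, had 8 to 120 counts each and were left out.

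With ATEVs, 63 of the 79 members had a log2 fold change against PBS below 0, where 51.7% of all genes tested did. The members also leaned together between the PBS libraries. Against the mean PBS level, 69 were below in PBS library 1 and 69 above in PBS library 2, with medians of -0.06 and 0.06. Counts of members on 1 side, here and with the other vesicles, are therefore not counts of independent genes. The median was -0.18, a fold of 0.885, and the median of all genes was -0.02. In 40 members both ATEV libraries lay below both PBS libraries (27.3% of all genes), and in 10 both lay above (25.2%). At an unadjusted p of 0.05 edgeR gave 12 members lower and 0 higher, against 10.3% and 11.6% of all genes. After Benjamini-Hochberg adjustment over all genes, 1 member was called, where 5.19% of all genes were. It was lower, and 0 were higher, against 1.66% and 3.52% of all genes, so the share called was not above the background. The members' fold changes spread from -0.57 for Ndufa1 to 0.46 for Ndufv3, and the median half-width of a member's 95% interval was 0.37. Most single differences therefore could not be told from 0 with these libraries. In bulk RNA, fewer cells that express a gene and less of its RNA per cell cannot be told apart.

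The called member was Sdhd, which anchors succinate dehydrogenase in the membrane and helps to bind ubiquinone. It measured 154 and 168 CPM with PBS and 109 and 110 CPM with ATEVs. Both ATEV libraries were below both PBS libraries and close to each other. Sdhd fell by 0.56 on the log2 scale (SE 0.12, 95% interval -0.84 to -0.28, adjusted p = 0.0447 in edgeR), a fold of 0.678. The call was lost with another scaling (RLE, adjusted p = 0.0523 in edgeR), without the low-count filter (0.0752), among protein-coding genes alone (0.0609), in the 4 libraries of these groups alone (0.125), and with offsets for GC content and length (0.0863). It was also lost in edgeR when any 1 of the 4 libraries was left out (adjusted p 0.145 to 0.261), and it held in DESeq2 (adjusted p = 0.00332). The fold change stayed between -0.63 and -0.47 in all of these fits.

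The other subunits of complex II did not move as 1 block. Sdhb, which carries the iron-sulphur clusters, was at 179 and 197 CPM with PBS and at 158 and 132 with ATEVs, lower in both libraries (log2 fold change -0.38). Sdha, the succinate-binding flavoprotein, was at 252 and 265 CPM with PBS and at 244 and 220 with ATEVs, a log2 fold change of -0.15 with a 95% interval of -0.54 to 0.23. Sdhc was at 153 and 156 CPM with PBS and at 167 and 197 with ATEVs. Sdhc thus had the highest fold change of the complex, with both ATEV libraries above both PBS libraries (0.24, 95% interval -0.07 to 0.54). None of Sdhb, Sdha and Sdhc passed the test.

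In complex I the median with ATEVs was -0.12, with 27 of 36 members below 0. Ndufa1, a small membrane subunit needed for assembly, was at 28.6 CPM in both PBS libraries and at 17.96 and 20.5 CPM with ATEVs (log2 fold change -0.57, adjusted p = 0.101 in edgeR). Ndufs6, a zinc-binding accessory subunit, was at 48.0 and 52.1 CPM with PBS and at 36.5 and 33.1 with ATEVs (-0.52). At the other end Ndufv3, an accessory subunit at the NADH-oxidising tip, was at 68.3 and 63.0 CPM with PBS and at 70.5 and 110 with ATEVs. Its log2 fold change of 0.46 had a 95% interval of -0.27 to 1.18, because the ATEV libraries were far apart. Ndufs1, the largest core subunit of the electron-input arm, was at 152 and 176 CPM with PBS and at 145 and 121 with ATEVs (-0.30, 95% interval -0.78 to 0.17). The 7 nuclear core subunits of complex I had a median of -0.07 and the 29 supernumerary ones a median of -0.16, without a test of their difference.

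In complex III, 8 of 9 members were below 0 with ATEVs, with a median of -0.26. Uqcrc2, a core protein that faces the matrix, was at 170 and 171 CPM with PBS and at 132 and 117 with ATEVs (-0.46, adjusted p = 0.117 in edgeR). Uqcrb, which helps to bind ubiquinone, was at 56.3 and 69.4 CPM with PBS and at 44.7 and 40.4 with ATEVs (-0.56). Both genes had their ATEV libraries clear of PBS, although neither passed the test. The Rieske protein gene Uqcrfs1 overlapped, with 86.1 and 95.3 CPM against 80.9 and 88.1 (-0.10, 95% interval -0.45 to 0.25). Uqcrq, a small subunit, was the 1 member of the complex above 0, at 0.27.

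In complex IV the median was -0.23 and 9 of 13 members were below 0 with ATEVs. Ndufa4, once counted with complex I and now with complex IV, was at 211 and 238 CPM with PBS and at 165 and 147 with ATEVs (-0.53). Cox7a2 was at 97.7 and 108 CPM with PBS and at 76.9 and 67.9 with ATEVs (-0.50, adjusted p = 0.124 in edgeR). Cox5b, a zinc-binding subunit, went the other way, with 95.05 and 106 CPM against 130 and 120 (0.32, 95% interval -0.06 to 0.69). Cox4i1 was at 392.1 and 439 CPM with PBS and at 359 and 378 with ATEVs (-0.17, 95% interval -0.48 to 0.14). None of these passed the test, though their ATEV libraries did not overlap those with PBS.

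In complex V, 16 of 17 members were below 0 with ATEVs and the median was -0.21. The exception was Atp5d, the delta subunit of the central stalk, at 0.20. Atp5g1, 1 of the 3 genes for the same proton-carrying c subunit, was at 138 and 150 CPM with PBS and at 98.3 and 104 with ATEVs (-0.51). Atp5b was at 1849 and 2062 CPM with PBS and at 1722 and 1358 with ATEVs (-0.34, 95% interval -0.83 to 0.14). All 4 genes of the peripheral stalk, which holds the F1 head still, lay below 0 with a median of -0.16. No gene of ATP synthase was called.

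**Figure D2:**
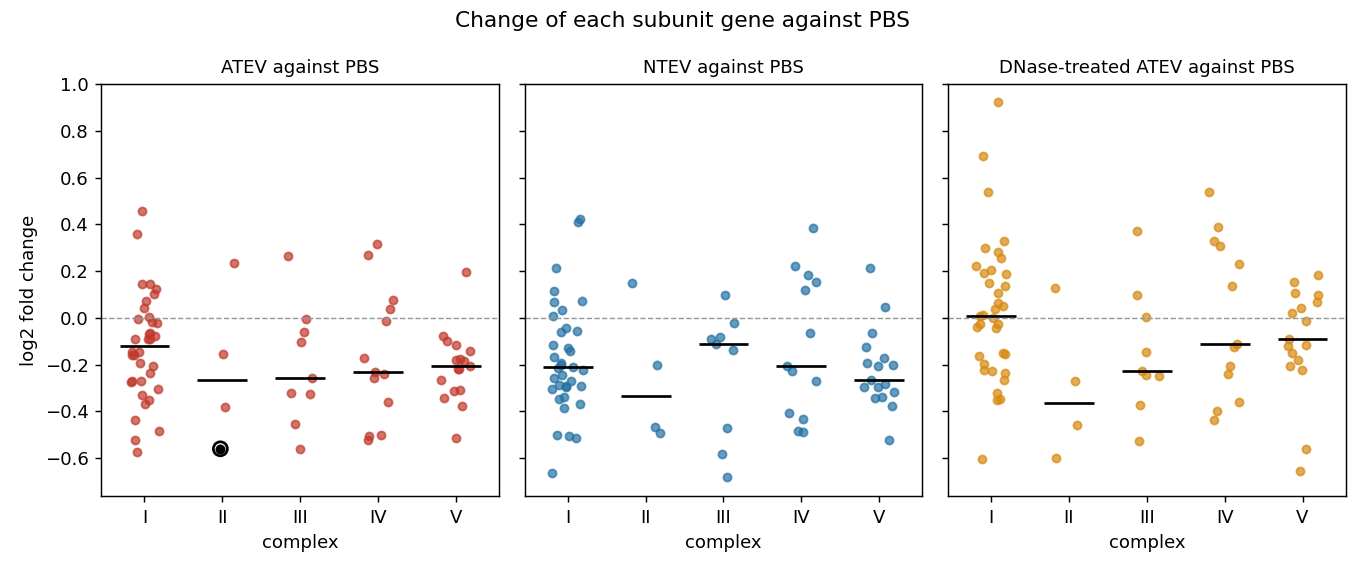
Log2 fold change against PBS of each subunit gene, by complex, for ATEVs, NTEVs and DNase-treated ATEVs; points are genes, lines are medians of a complex, the dashed line is no change and a ringed black point is a gene called in edgeR. With ATEVs and NTEVs most points lie below 0 (63 and 62 of 79), with DNase-treated ATEVs 42 of 79 do, and only Sdhd with ATEVs is ringed.

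The comparison of NTEVs with PBS uses the same PBS libraries. Of the 79 members, 62 had a log2 fold change below 0 (50.1% of all genes), and the median was -0.21, a fold of 0.867, against 0.00 for all genes. Both NTEV libraries lay below both PBS libraries in 51 members (30.9% of all genes) and above in 8 (28.6%). At an unadjusted p of 0.05 edgeR gave 13 lower and 0 higher, where 8.85% and 10.3% of all genes were. No member was called in edgeR, where 1.11% of all genes were, with 0.408% of genes called lower and 0.704% called higher, and DESeq2 called 3 lower (Sdhd, Uqcrb and Uqcrc2).

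Uqcrc2 had the smallest p with NTEVs, at 123 and 105 CPM against 170 and 171 with PBS (-0.58, 95% interval -0.91 to -0.25, adjusted p = 0.111 in edgeR). Uqcrb, at 42.5 and 35.7 CPM against 56.3 and 69.4, had the lowest fold change of all members (-0.68, adjusted p = 0.134 in edgeR). Sdhd was at 115 and 114 CPM against 154 and 168 (-0.49, adjusted p = 0.115 in edgeR). In all 3 the NTEV libraries were well clear of PBS. Cox5a, a matrix-facing subunit of complex IV, was at 71.6 and 63.5 CPM against 86.5 and 102 (-0.48), and Ndufs6 at 37.7 and 32.3 CPM against 48.0 and 52.1 (-0.52). Of the core subunits, Ndufs1 differed by -0.37 (95% interval -0.85 to 0.11), Sdha by -0.20 (-0.59 to 0.18), Uqcrfs1 by -0.14 (-0.49 to 0.21), Cox4i1 by -0.07 (-0.38 to 0.24) and Atp5b by -0.38 (-0.87 to 0.11). All 5 of these intervals contained 0, and only Cox4i1 had overlapping libraries. Medians by complex were -0.21 for complex I, -0.33 for II, -0.11 for III, -0.20 for IV and -0.27 for V.

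GC content moved with these differences. Across the 79 members, Spearman's rho between log2 fold change and transcript GC content was 0.41 with ATEVs and 0.46 with NTEVs, and across 12732 protein-coding genes it was 0.38 in both. These are descriptions over genes measured in the same libraries. With offsets that remove each library's trend with GC content and length, 53 members were below 0 with ATEVs and 57 with NTEVs, and the medians were -0.079 and -0.12, beside all-gene medians of -0.03 in each. The counts below 0 were thus smaller with the offsets, and so were the medians in size.

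**Figure D3:**
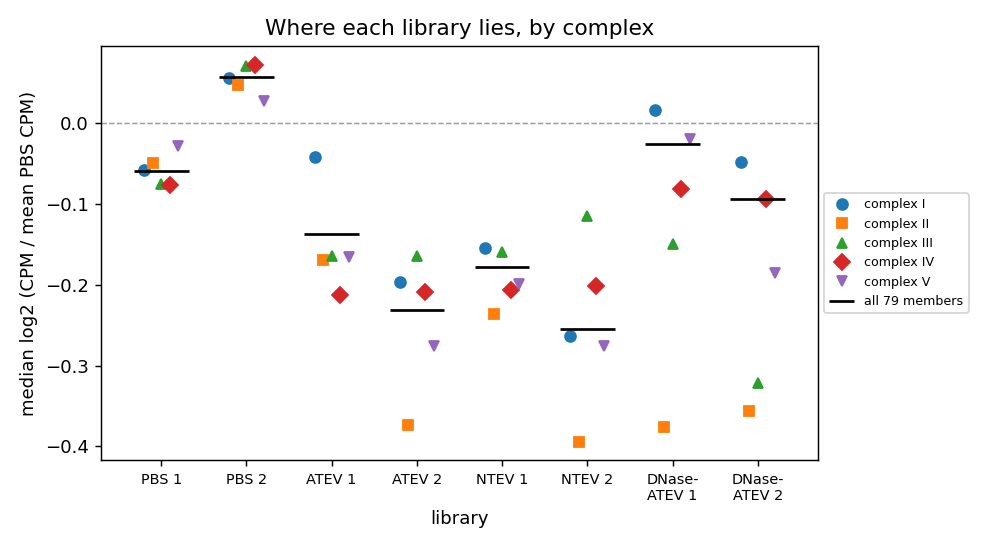
Median over members of log2 CPM relative to the mean PBS CPM, for each of the 8 libraries; markers are the complexes and black lines all 79 members. The ATEV and NTEV libraries lie between -0.26 and -0.14, below both PBS libraries (-0.06 and 0.06), and the DNase-treated libraries lie at -0.03 and -0.09.

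With DNase-treated ATEVs, again set against the same PBS libraries, 42 of 79 were below 0 (50% of all genes), and the median was -0.03 against 0.00 for all genes. With the GC and length offsets, 49 were below 0 and the median was -0.096, where the all-gene median was -0.01 and the members' median with untreated ATEVs was -0.079. The members' values ran from -0.66 for Atp5a1 to 0.92 for Ndufa6. Both libraries lay below PBS in 28 members (30.9% of all genes) and above in 19 (29.7%). At an unadjusted p of 0.05 edgeR gave 8 lower and 5 higher, where 10.9% and 13.7% of all genes were. No member was called in edgeR, where 3.01% of all genes were, with 0.855% of genes called lower and 2.16% called higher, while DESeq2 called 4 (Ndufa2 and Ndufa6 higher, Sdha and Atp5a1 lower).

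Among the members higher than PBS, Ndufa2, an accessory subunit of the electron-transferring arm of complex I with a thioredoxin-like fold, was at 109 and 111 CPM with PBS and at 150 and 170 with DNase-treated ATEVs (0.54, 95% interval 0.26 to 0.82, adjusted p = 0.0593 in edgeR). With the other vesicles it stayed between 107 and 114 CPM. Ndufa6, another accessory subunit of complex I, was at 49.0 and 51.3 CPM with PBS and at 71.0 and 119 with DNase-treated ATEVs (0.92, 95% interval 0.22 to 1.62). The 2 libraries of that group were far apart, and the fold change was 0.51 without the second of them and 1.29 without the first. In edgeR the adjusted p of Ndufa6 was 0.126, 0.0163 without the low-count filter.

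Among the lower ones, Atp5a1 was at 1361 and 1388 CPM with PBS and at 995 and 751 with DNase-treated ATEVs (-0.66, 95% interval -1.06 to -0.25, adjusted p = 0.0857 in edgeR, 0.0254 without the low-count filter). Atp5b, its partner in the F1 head, was at 1849 and 2062 against 1545 and 1109 (-0.56). Sdha was at 252 and 265 CPM against 195 and 147 (-0.60, adjusted p = 0.0948 in edgeR), and Sdhb at 179 and 197 against 143 and 131 (-0.46). In these genes both DNase-treated libraries were below both PBS libraries. Ndufs1 was also lower in both, at 126 and 89.9 CPM against 152 and 176 (-0.61, 95% interval -1.08 to -0.13). Cox4i1 and Uqcrfs1 overlapped PBS, at -0.12 (95% interval -0.43 to 0.19) and 0.10 (-0.25 to 0.45). Complex II had the lowest median of the complexes, -0.36, and complex I the highest, 0.01.

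**Figure D4:**
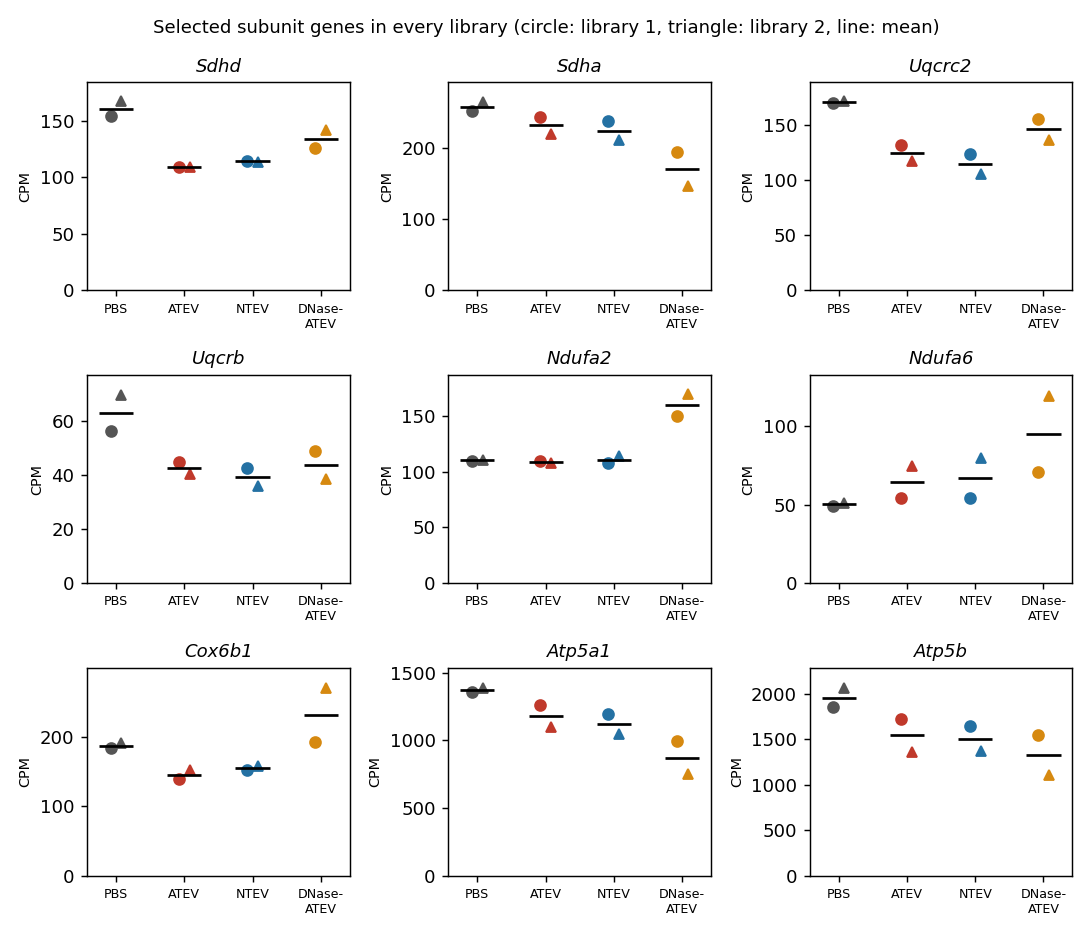
CPM of 9 subunit genes in every library, from 0 on a linear axis; circles and triangles are libraries 1 and 2 of a group and lines are group means. Sdhd is lowest with ATEVs and NTEVs (109 to 115 CPM), Sdha and Atp5a1 are lowest with DNase-treated ATEVs, and Ndufa2 is highest there (150 and 170 CPM).

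The share of members that separated the vesicle sources was near or under that of all genes. In ATEV against NTEV, 34 of 79 members were below 0 (48.4% of all genes), and the median was 0.02 against 0.01 for all genes. Both ATEV libraries lay above both NTEV libraries in 11 members (13.7% of all genes) and below in 9 (16.3%). No member was called in edgeR, where 1.19% of all genes were, with 1.05% of genes called higher and 0.145% lower, nor in DESeq2, and 1 was higher at an unadjusted p of 0.05 and 0 lower (4.4% and 3.84% of all genes). That 1 was Ndufab1, the mitochondrial acyl carrier protein and a complex I subunit, at 32.6 and 29.5 CPM with ATEVs and 23.7 and 22.3 with NTEVs (0.43, 95% interval 0.01 to 0.86, adjusted p = 0.579 in edgeR). The next by p were Uqcrh at -0.30, Uqcr11 at -0.21, and Ndufa8 and Cox5a at 0.24 each. All 4 of these intervals contained 0. For the core subunits the intervals were -0.41 to 0.54 for Ndufs1, -0.34 to 0.43 for Sdha, -0.31 to 0.39 for Uqcrfs1, -0.42 to 0.20 for Cox4i1 and -0.45 to 0.52 for Atp5b. Differences within these intervals were not excluded.

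DNase-treated against untreated ATEVs was the comparison with most members on the high side: 62 of 79 were above 0, and 17 below (48.3% of all genes), with a median of 0.09 against 0.01 for all genes. Both DNase-treated libraries lay above both untreated libraries in 26 members (19.4% of all genes) and below in 4 (16.8%). At an unadjusted p of 0.05 edgeR gave 12 higher and 2 lower, where 6.38% and 4.97% of all genes were. No member was called in edgeR, where 0.665% of all genes were, with 0.0855% of genes called higher and 0.579% lower, and DESeq2 called Ndufa2 higher. The lean was not seen in every fit. Without DNase-treated library 1, 39 of 79 were below 0 and the median was 0.0069. With offsets for GC content and length, 50 were below 0 and the median was -0.061.

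Ndufa2 had the smallest p, at 110 and 108 CPM with untreated and 150 and 170 with DNase-treated ATEVs (0.55, 95% interval 0.28 to 0.83, adjusted p = 0.146 in edgeR). Ndufb3, a small membrane-arm subunit of complex I, was at 39.9 and 46.4 CPM against 60.6 and 72.3 (0.62, adjusted p = 0.206 in edgeR). Cox6b1, which faces the intermembrane space in complex IV, was at 139 and 152 CPM against 193 and 270 (0.67, adjusted p = 0.208 in edgeR). In all 3 the groups did not overlap. Ndufa1 was at 17.96 and 20.5 CPM against 26.0 and 32.8 (0.61), around its PBS level of 28.6, and Ndufb11, a membrane-arm subunit, was at 48.6 and 49.7 CPM against 63.1 and 88.9 (0.63). Sdhd was at 109 and 110 CPM against 126 and 142 (0.29, 95% interval 0.01 to 0.57, adjusted p = 0.422 in edgeR), between its ATEV and PBS levels. Sdha went the other way, at 244 and 220 CPM against 195 and 147 (-0.45). For Ndufs1, Uqcrfs1, Cox4i1 and Atp5b the libraries overlapped.

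All 13 members of complex IV were above 0 in this comparison, from under 0.01 for Cox5a to 0.67 for Cox6b1, with a median of 0.09. In complex V, 13 of 17 members were above 0. Of the 5 genes of the F1 head and central stalk, Atp5a1 was at -0.43, Atp5b at -0.22 and Atp5d at -0.13, and Atp5c1 was at 0.45 and Atp5e at 0.18. The 3 c-ring genes were all above 0, with a median of 0.33. Atp5g1 was at 98.3 and 104 CPM with untreated and at 121 and 164 with DNase-treated ATEVs (0.50, 95% interval 0.10 to 0.90).

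Transcript length went with these values. Of 47 members with a reference transcript under 1000 bases, 43 were above 0 and the median was 0.10. Of 24 with at least 1000 but under 2000 bases, 16 were above 0, also with a median of 0.10. Of 8 with 2000 bases or more, 5 were below 0 and the median was -0.21. The 5 were Ndufa10, Ndufs1, Sdha, Sdhc and Atp5a1, while Ndufab1, Ndufb2 and Atp5g1 were above 0. Spearman's rho with length was -0.26 across the 79 members and -0.15 across 12732 protein-coding genes, over the same 4 libraries. The part of length, fragmentation or RNA quality in these differences was not tested beyond the offsets above.

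**Figure D5:**
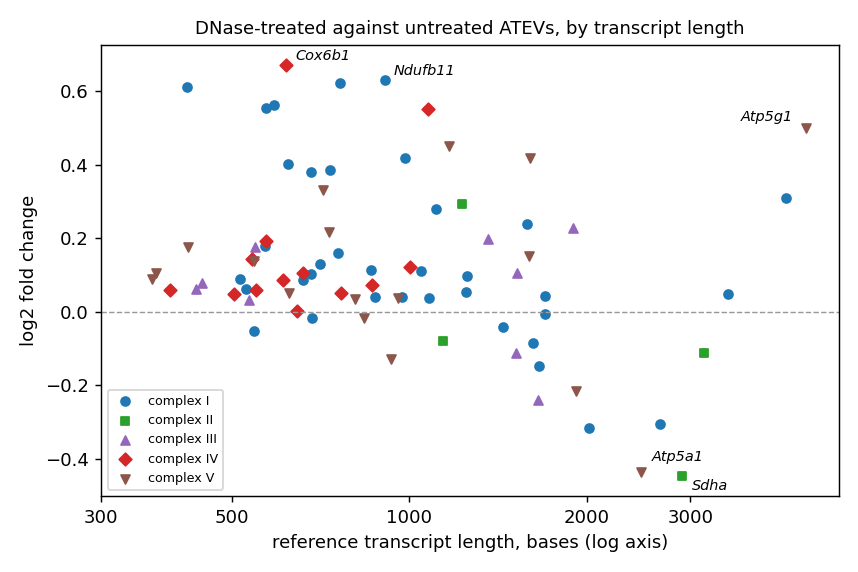
Log2 fold change of DNase-treated against untreated ATEVs (vertical axis) against reference transcript length in bases (log axis) for the 79 subunit genes, with 1 marker shape per complex. Of the 47 genes under 1000 bases 43 lie above 0, and Sdha and Atp5a1 lie lowest at -0.45 and -0.43.

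The partner genes of the chain are given as lists, with shares of all genes beside them. Assembly factors, which build the complexes without staying in them, had 49 tested genes and 0 calls in any comparison in edgeR, with medians of -0.18 in ATEV, -0.25 in NTEV and -0.16 in DNase-treated ATEV against PBS. At an unadjusted p of 0.05 the list had 4 lower and 0 higher in the first of these, 4 and 0 in the next, and 3 and 1 in the last. All-gene shares were 10.3%, 8.85% and 10.9% lower in that order, so these counts were near or under the background. Mitochondrial ribosomal proteins, which serve the translation of the mitochondrially encoded subunits, had 77 tested genes, 0 calls and medians of -0.21, -0.31 and -0.10 in the same order. No gene of either list passed the test, where 5.19%, 1.11% and 3.01% of all genes were called in that order. Of the 77 ribosomal genes, 64, 68 and 50 were below 0 (51.7%, 50.1% and 50% of all genes). At an unadjusted p of 0.05 in edgeR, 5, 10 and 3 of them were lower. In the same order 0, 0 and 3 were higher (11.6%, 10.3% and 13.7% of all genes). Cytochrome c and coenzyme Q synthesis (15 tested) had medians of -0.13, -0.30 and -0.34, carriers and porins (14 tested) -0.06, -0.25 and -0.22, and antioxidant enzymes (10 tested) -0.22, -0.35 and -0.26, each with 0 calls in edgeR.

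The tricarboxylic acid cycle and pyruvate dehydrogenase, which supply the chain with NADH and succinate, lay on 1 side of PBS with DNase-treated ATEVs: all 18 tested genes were below 0, the median was -0.45, and both libraries lay below both PBS libraries in 17, where the shares of all genes were 50% and 30.9%. None was called in edgeR, where 3.01% of all genes were, and 9 were lower at an unadjusted p of 0.05, as were 10.9% of all genes. With ATEVs and NTEVs the medians of this list were -0.23 and -0.28, with 16 and 17 of 18 below 0. Sdha and Sdhb, whose enzyme is a step of the cycle as well as complex II, lay low with DNase-treated ATEVs as described above. The membrane anchors of that enzyme did not move together against PBS, with Sdhd at -0.27 and Sdhc at 0.13. Both DNase-treated libraries lay below both PBS libraries for Sdhd and above both for Sdhc. Neither anchor was called in edgeR.

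Among 22 regulators of mitochondrial biogenesis and mitochondrial DNA, the 1 call was Esrra, the nuclear receptor ERR alpha, which activates many respiratory genes. It was called with DNase-treated ATEVs against PBS, where 3.01% of all genes were called and 2.16% were called higher. For a list of 22 genes, 1 call is near that share. It was at 33.99 and 33.6 CPM with PBS and at 57.5 and 53.7 with DNase-treated ATEVs, and it rose by 0.72 on the log2 scale (SE 0.14, adjusted p = 0.0498 in edgeR). With ATEVs it was at 48.5 and 52.4 CPM (0.58, adjusted p = 0.0679 in edgeR) and with NTEVs at 43.2 and 52.8 CPM (0.51). All vesicle libraries lay above both PBS libraries, while the median of this list against PBS was -0.13, -0.25 and -0.11. The call was lost in edgeR with RLE scaling (adjusted p = 0.0509), among protein-coding genes alone (0.0787), with GC and length offsets (0.154, log2 fold change 0.38) and when any 1 of the 4 libraries was left out (0.131 to 0.272). It held in DESeq2 (adjusted p = 0.00130), and in edgeR without the low-count filter (0.0254) and in the 2 groups alone (0.0450).

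Some of these counts can include reads of other genes. In the reference annotation, exons of 28 of the 79 members overlap exons of another gene, 5 of them on the same strand, and the strand setting of the counting is not given in the sources used here. Of the members described above, Atp5a1 overlaps Haus1, Cox4i1 overlaps Emc8, Ndufa2 overlaps Tmco6, Ndufab1 overlaps Gm44986, Ndufb11 overlaps Rbm10, Ndufs1 overlaps Eef1b2 and Ino80dos, Uqcrb overlaps Gm10767 and Uqcrc2 overlaps Pdzd9, each on the opposite strand. Ndufs6 likewise overlaps Mrpl36, Cox5a overlaps Gm26631 and Atp5d overlaps Cbarp on the opposite strand, while Ndufb2 overlaps other genes on both strands. Values of all these members are uncertain to that extent, and their share of such reads was not tested.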

How the data were processed

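Gene expression was measured by stranded mRNA sequencing in 8 libraries, 2 per group, of total RNA from cultured cells, per the labels' protocols. The values are whole-number gene counts as deposited by the authors, 42687 rows keyed by Ensembl identifiers. Per the submitters' processing notes, mm9 was the build and the tools were TopHat, TopHat2 2.0.11, Cufflinks 2.1.1 and bcl2fastq 2.19, whose roles are not stated. Counter, strand setting and annotation: not given in the sources used here. Symbols were matched for 42250 rows from GENCODE M21, also the source of transcript length and GC content. Promoter sequences came from RefSeq by symbol, and no coordinates were joined to the counts.

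In R 4.3.3, edgeR 4.0.16 kept 15197 genes by its filter on expression by group, scaled them by TMM and estimated 1 mean per group in a quasi-likelihood model of all 8 libraries (4 residual degrees of freedom, common biological coefficient of variation 0.226). Tests were two-sided, with Benjamini-Hochberg adjustment over all genes and a threshold of 0.05. Intervals are 95%, from the model's SE. The code was tested on simulated data. 1 allele of the mice is not reported here. Within each group, neither library was a copy of the other. A chi-square of their counts averaged 39.0 to 145 per gene where a gene had at least 20 counts. Libraries of different groups were not compared in this way.

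Members, gene lists and alternatives were chosen with earlier results of these data known. Genes named in a comparison are called members, members with the smallest p up to 5 where fewer were called, a core subunit per complex (Ndufs1, Sdha, Uqcrfs1, Cox4i1, Atp5b), Cox7a1, each complex's highest and lowest member with ATEVs, and called genes of other lists. Sdhb, Sdhc, Ndufb2, Ndufa6, Ndufa7, Atp5a1, Atp5g1 and others outside this rule in a comparison were named after their values were seen. The alternatives were DESeq2 1.42.0, RLE scaling, no low-count filter, protein-coding genes only, the 2 groups alone, a replicate block, offsets for GC content and length, and leaving out each library.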

Additional observations from a re-analysis of the deposited data

How the results depend on the processing

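The count of called members in ATEV against PBS went from 1 to 0 with RLE scaling, without the low-count filter, among protein-coding genes, in the 2 groups alone, with GC and length offsets, and in each fit without 1 library (range 0 to 0), and it was 1 in DESeq2. DESeq2 called 3 members in NTEV against PBS, 4 in DNase-treated ATEV against PBS and 1 in DNase-treated against untreated ATEV, where edgeR called 0. Without the low-count filter 2 were called in DNase-treated ATEV against PBS (Ndufa6 and Atp5a1). In NTEV, DNase-treated ATEV and both comparisons between vesicles, fits without 1 library called 0. No cause of these differences was tested beyond the settings themselves.

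The replicate numbers pair no libraries by the labels. Deviations of same-numbered libraries correlated at -0.18, -0.24 and -0.14 between PBS and the ATEV, NTEV and DNase-treated groups, and at 0.53, 0.55 and 0.49 among the vesicle groups. With the replicate number as a block, edgeR called 1 member (Sdhd, adjusted p = 0.0332) in ATEV against PBS. In DNase-treated ATEV against PBS it called 3 (Ndufa2, Ndufa6 and Atp5a1). It called no member in NTEV against PBS or in the comparisons between vesicles. The medians against PBS with the block were -0.18 for ATEV, -0.21 for NTEV and -0.04 for DNase-treated ATEV.

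With GC and length offsets the members' median log2 fold change was -0.079 in ATEV, -0.12 in NTEV and -0.10 in DNase-treated ATEV against PBS, and -0.061 in DNase-treated against untreated ATEV, where it had been 0.09. Without 1 library it ranged from -0.24 to -0.12 in ATEV, from -0.29 to -0.17 in NTEV and from -0.09 to -0.01 in DNase-treated ATEV against PBS, from -0.01 to 0.07 in ATEV against NTEV, and from 0.0069 to 0.13 in DNase-treated against untreated ATEV. Of 1089 alternative values of named members, 1067 kept their side of the threshold, 13 passed it where they had not, and 9, all of Sdhd in ATEV against PBS, lost it; 53 had the opposite sign with no call in either fit. Leaving out 1 library leaves its group with 1, which is then assumed to vary like the others. The fit had 4 residual degrees of freedom, and the median half-width of a member's 95% interval in ATEV against PBS was 0.37, which limits the differences that can be told from 0.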
